A study of Bos taurus with 47 samples.

Results

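In bovine skeletal muscle, 8 genes, known here by Ensembl identifier, were at or near 0 in some libraries and detected in others of the same stage. For ENSBTAG00000039065 the detected level was itself low, at 17 counts or fewer. The 8 genes were chosen by their measured level in CPM (reads per gene scaled to the size of the library). It separated the libraries of a stage into a high and a low set by a gap of over 4-fold at 2 stages. With the definition used below, 6 of the 8 met this at 2 or more stages. The chosen genes are 8 of the 27607 identifiers in the deposited tables. The gaps and the sets are therefore given as a description, with no test. Messenger RNA had been sequenced from the Longissimus muscle in 47 libraries descending from F0 crossbred Angus heifers. Over the first 84 days of gestation the F0 heifers had a low daily gain of 0.28 kg (LG) or a moderate daily gain of 0.79 kg (MG). F2 fetuses at day 84 gave 8 LG and 8 MG libraries from Longissimus dorsi. F1 heifers gave 8 LG and 8 MG libraries at birth, before suckling, and 8 LG and 7 MG libraries at slaughter, from Longissimus thoracis. The protocol text gives 7 LG and 8 MG at slaughter, and the sample labels were followed. All F0 heifers were managed together after day 84, and F1 heifers were managed alike. Each library title carries a number, and the labels do not say whether equal numbers at different stages mark 1 animal or a dam and her fetus. The F1 animals were heifers by the labels, and the sex of each fetus is not given.

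Genes that are off in some members of an outbred population and on in others are known in many mammals. Such genes are often carried by only some chromosomes of the population, or are read from 1 of several diverged alleles, so that an animal's level follows what it inherited. Reads from a diverged copy can also fail to match a reference gene or can be counted under a related one. Genotypes, alleles and the fate of single reads were not tested here.

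Total counts ran from 13308433 to 32547565 per library, with a median of 18334323, and a count of 3 corresponded to between 0.0922 and 0.225 CPM. This floor is what a count of 0 allows, and it covers counting error only. The reference gene table used here carried 0 of the 27607 identifiers, so the genes have no name, role or position in this account, no sequence is shown and the tissue was not checked against marker genes. In bulk muscle, fewer cells of a type and less RNA per cell cannot be told apart. CPM values were scaled within each stage, and levels are not compared between genes, since their lengths were not used.

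With a pseudocount of 0.1 CPM, a gap of over 4-fold with at least 2 libraries on each side was found in 15 of the 24 combinations of a gene and a stage, 5 in fetuses, 4 at birth and 6 at slaughter. Among the 23108 identifiers with a count, such a gap occurred in 0.307% in fetuses, in 0.0736% at birth and in 0.0736% at slaughter, and 0.0433% had it at 2 or more stages. ENSBTAG00000048950 and ENSBTAG00000049130 were split at all 3 stages, and 4 genes were split at 2. ENSBTAG00000039664 was split in fetuses alone, and ENSBTAG00000039065 at no stage, with gaps of 3.08-fold in fetuses, 2.99-fold at birth and 2.89-fold at slaughter. The number of the 8 genes split at 2 or more stages was 6 here, 8 with a pseudocount of 0.02 CPM, 2 with a pseudocount of 0.5 CPM, 8 with a gap over 2-fold and 5 with a gap over 8-fold. The narrowest gap that counted was 4.04-fold, for ENSBTAG00000048950 in fetuses. The widest that did not count was 4.11-fold, for ENSBTAG00000050846 at birth, where it set a single library apart.

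**Figure D1:**
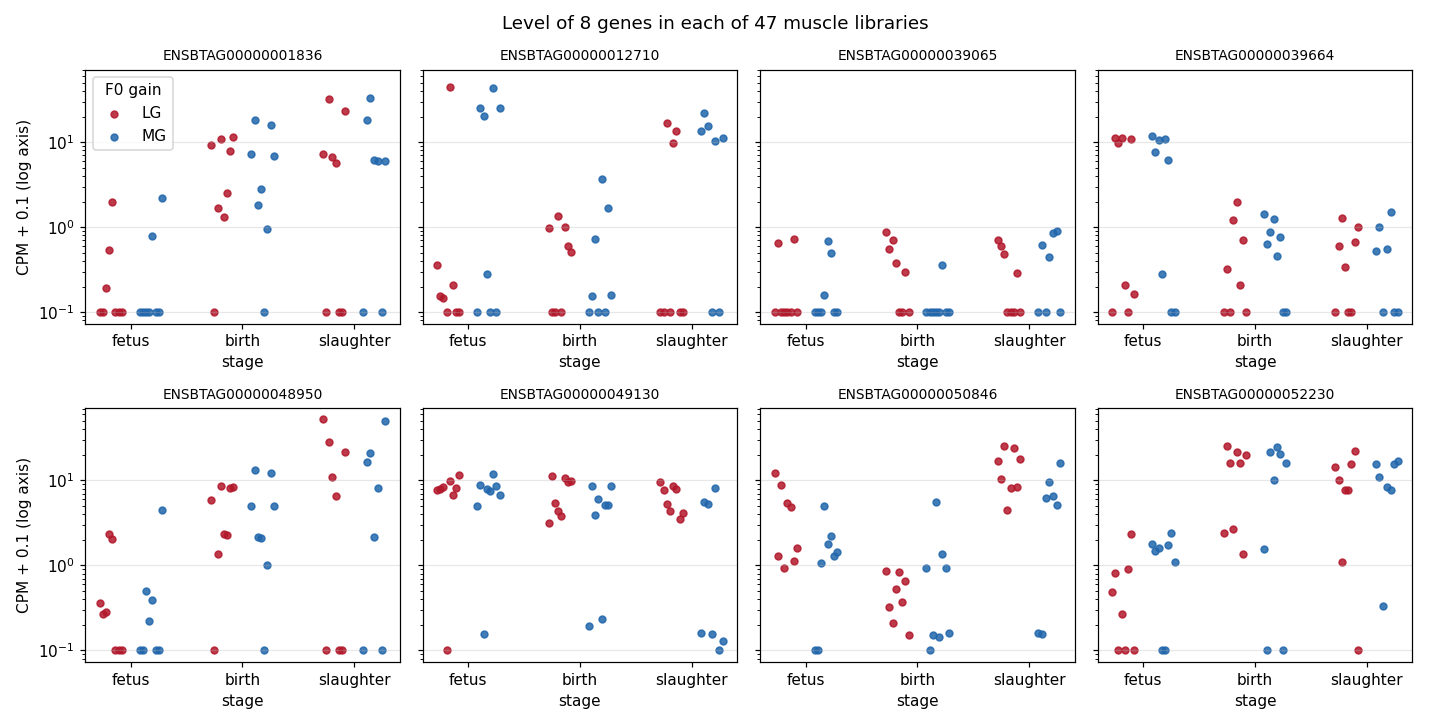
Level of each of the 8 genes (CPM + 0.1, log axis) in every library at the 3 stages, LG in red and MG in blue, 1 point per library. Points at 0.1 are libraries with no count, and in slaughter muscle the zero and nonzero libraries of ENSBTAG00000001836 and ENSBTAG00000012710 are far apart, with no library between 0 and 5.58 CPM and between 0 and 9.57 CPM.

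ENSBTAG00000001836 had no count in some libraries at every stage. It was low in all fetuses and formed a clear high set at birth and at slaughter. In fetuses it ranged from 0 to 1.87 CPM in LG (median 0) and from 0 to 2.12 CPM in MG (median 0), and 11 of 16 libraries held no count. At birth it ranged from 0 to 11.5 CPM in LG (median 5.11) and from 0 to 18.3 CPM in MG (median 4.75). At slaughter the range was 0 to 32.3 CPM in LG (median 6.08) and 0 to 32.8 CPM in MG (median 5.89). The low libraries were LG 07 and MG 20 at birth and LG 07, LG 29, LG 36, MG 20 and MG 45 at slaughter, each with 0 counts. The high set thus held 7 of 8 LG and 7 of 8 MG libraries at birth, and 5 of 8 LG and 5 of 7 MG libraries at slaughter.

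Among slaughter libraries that expressed ENSBTAG00000001836, 2 levels could be seen. LG 22, MG 39, MG 47, MG 32, LG 14 and LG 02 lay between 5.58 and 7.15 CPM. The other 4 libraries were MG 23 with 18.1 CPM, LG 41 with 23.2, LG 11 with 32.3 and MG 31 with 32.8. At birth the corresponding step lay between 2.72 CPM in MG 17 and 6.78 CPM in MG 37. These steps were noticed in the values and were not tested.

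ENSBTAG00000048950 had the same pattern. Its low libraries were LG 07 and MG 20 at birth and LG 07, LG 29, LG 36, MG 20 and MG 45 at slaughter, all with 0 counts, so both genes put 16 of 16 birth libraries and 15 of 15 slaughter libraries into the same set. At birth ENSBTAG00000048950 ranged from 0 to 8.42 CPM in LG (median 3.99) and from 0 to 13.2 CPM in MG (median 3.46). At slaughter it ranged from 0 to 52.0 CPM in LG (median 8.70) and from 0 to 49.9 CPM in MG (median 8.06). The highest slaughter libraries were LG 02 with 52.0 CPM and MG 47 with 49.9, which for ENSBTAG00000001836 held 7.15 and 5.89 CPM. The ratio between both genes thus varied among slaughter libraries.

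In fetuses ENSBTAG00000048950 was mostly near the floor, with medians of 0.172 CPM in LG and 0.0604 CPM in MG. LG 14 had 2.22 CPM, LG 22 had 1.93 and MG 47 had 4.39, and these formed the high set of 3 libraries. Its size depended on the definition, with 9 high libraries at a pseudocount of 0.02 CPM and 8 where 3 or more counts make a library high. The same 3 fetuses held 0.444, 1.87 and 2.12 CPM of ENSBTAG00000001836, and the only other fetus with 3 or more counts of that gene was MG 32 with 0.686 CPM.

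ENSBTAG00000052230 was present in most libraries and nearly lost in a few. Fetal levels were low, with a range of 0 to 2.26 CPM in LG (median 0.278) and 0 to 2.27 CPM in MG (median 1.43), and the 5 libraries with 0 counts were LG 11, LG 22, LG 41, MG 31 and MG 32. At birth the gene ranged from 1.25 to 25.3 CPM in LG (median 15.9) and from 0 to 24.9 CPM in MG (median 12.9). MG 13 and MG 31 held 0 counts at birth, which made the high set 8 of 8 LG and 6 of 8 MG libraries. A further 4 birth libraries stood between, LG 25 with 1.25 CPM, MG 12 with 1.45, LG 05 with 2.30 and LG 11 with 2.60, and the next library, MG 17, had 9.92. At slaughter the range was 0 to 21.8 CPM in LG (median 8.77) and 0.237 to 16.8 CPM in MG (median 10.9). The low set was LG 41 with 0 CPM, MG 31 with 0.237 and LG 11 with 1.00, against 7.57 CPM or more in the other 12.

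At birth and at slaughter, libraries low for ENSBTAG00000052230 were high for ENSBTAG00000001836. At slaughter the 3 lowest libraries of ENSBTAG00000052230, LG 41, MG 31 and LG 11, were the 3 highest of ENSBTAG00000001836. At birth the 2 libraries without ENSBTAG00000052230, MG 13 and MG 31, were the 2 highest of ENSBTAG00000001836, and the 6 lowest all lay among the 8 highest. Conversely, LG 07 and MG 20, which lacked ENSBTAG00000001836 at birth, had the 2 highest levels of ENSBTAG00000052230, 25.3 and 24.9 CPM. High levels of both occurred too. MG 23 at slaughter had 18.1 CPM of ENSBTAG00000001836 and 10.9 CPM of ENSBTAG00000052230, and LG 28 at birth had 11.5 and 19.8 CPM. In fetuses LG 41 and MG 31 held 0 counts of both genes. Over stage-centred log2 CPM in 47 libraries, ENSBTAG00000052230 had the lowest Pearson r with ENSBTAG00000001836 of 15263 genes (r = -0.57). The libraries form separate sets, so this r ranks the genes and measures no dose relation.

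**Figure D2:**
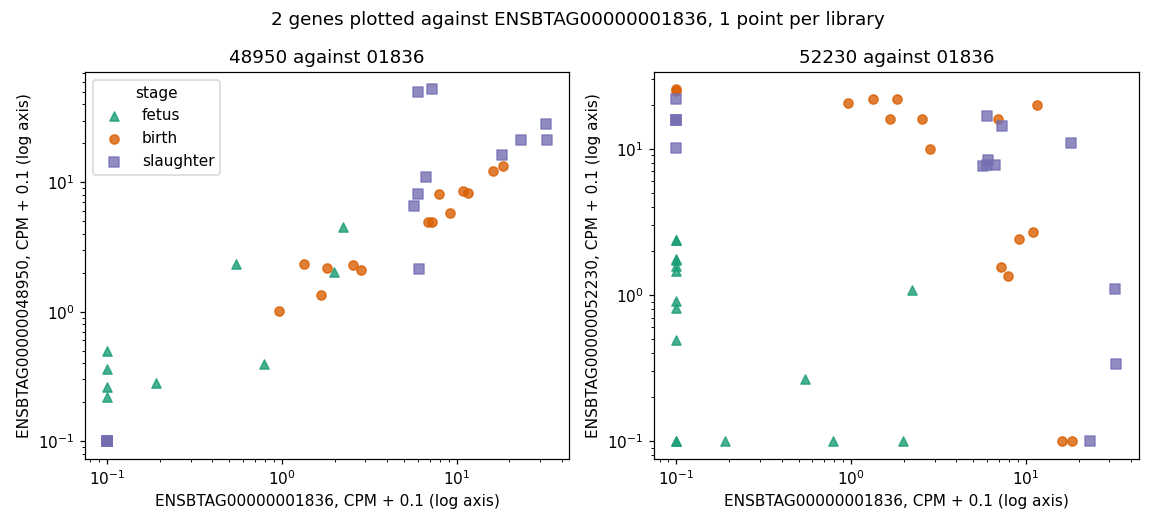
ENSBTAG00000048950 (left) and ENSBTAG00000052230 (right) against ENSBTAG00000001836, CPM + 0.1 on log axes, 1 point per library with the stage by colour and shape. ENSBTAG00000048950 climbs with ENSBTAG00000001836 at birth and shares its zero libraries at birth and slaughter, while the slaughter libraries with the least ENSBTAG00000052230 (0, 0.237 and 1.00 CPM) sit at the right edge.

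ENSBTAG00000012710 was either at 0 or well above the floor at slaughter. In slaughter muscle it ranged from 0 to 16.7 CPM in LG (median 0) and from 0 to 22.2 CPM in MG (median 11.2). The low set of 7 libraries, LG 02, LG 07, LG 14, LG 36, LG 41, MG 32 and MG 45, held 0 counts, and the high set held at least 204 counts each. High libraries numbered 3 of 8 in LG and 5 of 7 in MG. In fetuses the range was 0 to 44.4 CPM in LG (median 0.0498) and 0 to 43.1 CPM in MG (median 10.1), and LG 22, MG 20, MG 23, MG 39 and MG 47 were high with 19.9 CPM or more. The other 11 fetuses had at most 4 counts, and the high set was 1 of 8 LG and 4 of 8 MG libraries.

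At birth ENSBTAG00000012710 was weak, with 0 to 1.26 CPM in LG (median 0.457) and 0 to 3.57 CPM in MG (median 0.0566), and no 4-fold gap was found. Presence still varied between libraries. Of the 16, 8 had at least 8 counts and the other 8 had 0 or 1. Among libraries with 3 or more counts, the median was 24.9 CPM in 7 fetuses, 0.888 CPM in 8 newborn calves and 13.5 CPM in 8 slaughter samples.

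ENSBTAG00000039664 was a fetal all-or-none gene with a weaker remainder after birth. Fetal LG libraries ranged from 0 to 11.1 CPM (median 4.85) and MG libraries from 0 to 11.6 CPM (median 6.84). The low fetuses were LG 02, LG 22, LG 29, LG 41, MG 31, MG 45 and MG 47, with at most 3 counts, and the 9 high fetuses lay between 6.12 and 11.6 CPM. High libraries numbered 4 of 8 in LG and 5 of 8 in MG. The highest level was 1.89 CPM at birth and 1.39 CPM at slaughter. Even so, 5 of 16 birth libraries and 6 of 15 slaughter libraries held no count at all.

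ENSBTAG00000039065 was barely detected, with no library above 17 counts. In fetuses 4 of 16 libraries had 3 or more counts, LG 07 with 10, LG 36 with 12, MG 32 with 12 and MG 39 with 6, and 11 had 0. At birth the counts were 15 in LG 05, 8 in LG 07, 11 in LG 10, 4 in LG 11, 4 in LG 25 and 4 in MG 21, and 0 in the other 10 libraries. At slaughter 4 LG and 4 MG libraries had between 3 and 17 counts, and the other 7 had 0. Libraries with 3 or more counts held 0.395 to 0.616 CPM in fetuses, 0.199 to 0.767 CPM at birth and 0.189 to 0.808 CPM at slaughter, near the floor, and a library at 0 may hold a low level not detectable at this depth.

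ENSBTAG00000049130 was expressed at a similar level in most animals and dropped out of a few. In fetuses it ranged from 0 to 11.4 CPM in LG (median 7.89) and from 0.0573 to 11.6 CPM in MG (median 7.63), with LG 14 and MG 23 low at 0 and 1 count. At birth it ranged from 3.07 to 11.1 CPM in LG (median 7.36) and from 0.0936 to 8.60 CPM in MG (median 5.03), with MG 12 and MG 20 low at 2 and 3 counts. At slaughter it ranged from 3.41 to 9.57 CPM in LG (median 6.38) and from 0 to 7.96 CPM in MG (median 0.0601). The low slaughter libraries, MG 20, MG 32, MG 45 and MG 47, had at most 1 count, so 8 of 8 LG but 3 of 7 MG libraries were high. No LG library was low at birth or at slaughter, while 1 of the 2 low fetuses was LG.

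ENSBTAG00000050846 was at or near 0 in 2 libraries in fetuses and in 2 at slaughter, and varied widely among the rest. At birth 6 of 16 libraries had 2 counts or fewer. Fetal levels ran from 0.833 to 12.3 CPM in LG (median 3.11) and from 0 to 4.95 CPM in MG (median 1.27). MG 15 and MG 20 held 0 counts, and the high set was 8 of 8 LG and 6 of 8 MG libraries. At slaughter levels ran from 4.42 to 24.99 CPM in LG (median 13.5) and from 0.0565 to 15.7 CPM in MG (median 6.10), with 1 count each in MG 20 and MG 23. The high set was 8 of 8 LG and 5 of 7 MG libraries. At birth the gene was weak, with medians of 0.344 CPM in LG and 0.442 CPM in MG, and MG 17 alone stood out with 5.45 CPM against 1.25 CPM or less elsewhere. Only 6 of 8 LG and 4 of 8 MG birth libraries had 3 or more counts, with 2 counts in LG 10 and 1 in LG 28. The fetal and slaughter low libraries of this gene were all MG, with MG 20 low at both stages.

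Apart from the pair ENSBTAG00000001836 and ENSBTAG00000048950, the genes did not split the libraries alike. At slaughter 6 genes were split, which makes 15 pairs of genes. The pair above agreed in 100% of libraries, and the other 14 pairs in between 40.0% and 73.3%. At birth the pair again agreed in 100% of 16 libraries, and the other 5 pairs in 75.0% or 87.5%, with low sets of 2 libraries each. In fetuses the 10 pairs agreed in 18.8% to 75.0% of libraries. Rare low sets agree in most libraries by their size alone, so these shares are not read as a relation. Per library, 2 slaughter samples were high for all 6 split genes, and MG 20 and MG 45 were low for 4 of 6. MG 20 at birth was low for 3 of 4.

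**Figure D3:**
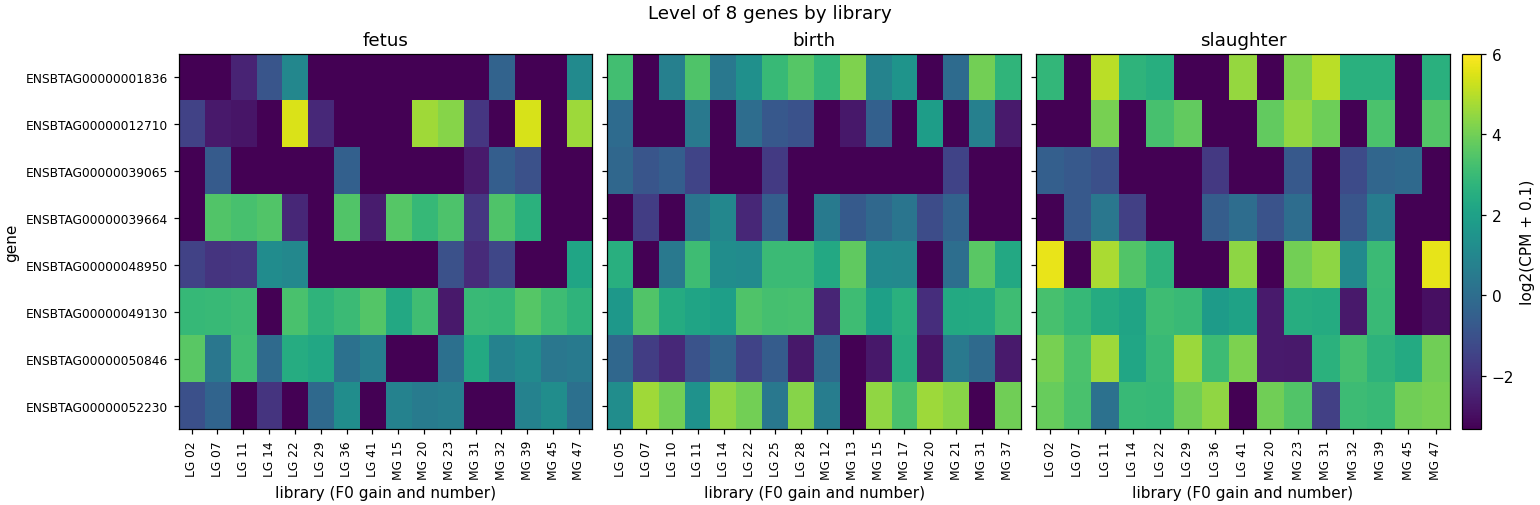
Level of the 8 genes (rows) in every library (columns, LG before MG, by library number) at the 3 stages, as log2(CPM + 0.1) by colour. The dark cells of ENSBTAG00000001836 and ENSBTAG00000048950 fall on the same columns at birth and at slaughter (2 and 5 libraries), and those of the other genes fall on other columns for the most part.

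Library numbers that recur at 2 stages let the sets be followed. The 6 numbers found at both slaughter and birth, the 15 at both slaughter and fetus and the 7 at both birth and fetus carried the same LG or MG label in every case. Between slaughter and birth, 4 genes were split at both stages, and the set was the same for 23 of the 24 combinations of a gene and a number (95.8%), against 65.5% over libraries with different numbers. The exception was number 11 for ENSBTAG00000052230, with 1.00 CPM at slaughter and 2.60 CPM at birth, which lay on opposite sides of the widest gap of their own stage. ENSBTAG00000001836 and ENSBTAG00000048950 had equal sets at both stages, so the 24 combinations are not separate observations. Agreement by number over split genes was already known when these genes were chosen, so the values are a description.

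The matched values of ENSBTAG00000001836 kept more than presence. Numbers 07 and 20 had 0 counts at slaughter and at birth. Number 14 had 6.58 CPM at slaughter and 1.23 CPM at birth, and number 22 had 5.58 and 2.45 CPM at these stages. Number 11 had 32.3 CPM at slaughter and 10.8 CPM at birth, and number 31 had 32.8 CPM at slaughter and 16.0 CPM at birth. The order of the 3 levels was thus the same at both stages. ENSBTAG00000048950 had 10.9 and 6.46 CPM in slaughter numbers 14 and 22, and 28.1 and 21.2 CPM in slaughter numbers 11 and 31. Its birth libraries held 2.25 CPM in number 14, 2.19 in 22, 8.42 in 11 and 12.2 in 31.

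Genes too weak for a 4-fold gap could be followed by presence, with a library counted as high where it had 3 or more counts. This definition was chosen after the values were seen, and ENSBTAG00000001836 and ENSBTAG00000048950 had equal sets under it at birth and slaughter. Over the 8 genes it gave the same set for 46 of 48 combinations between slaughter and birth (95.8%, against 60.2% over different numbers). It gave 90 of 120 between slaughter and fetus (75%, against 55.4%) and 43 of 56 between birth and fetus (76.8%, against 55.3%). ENSBTAG00000012710, ENSBTAG00000039065 and ENSBTAG00000039664 each agreed for 6 of 6 numbers. For ENSBTAG00000012710, numbers 11, 20, 22 and 31 had 351, 226, 206 and 261 counts at slaughter and 18, 81, 17 and 25 counts at birth, while 07 and 14 had 0 at both. ENSBTAG00000039065 had 10 and 8 counts in slaughter numbers 07 and 11, and 8 and 4 counts in the birth libraries of these numbers, while numbers 14, 20, 22 and 31 had 0 at both stages.

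Slaughter and fetal libraries of 1 number agreed less. With 4 genes split at both stages, the set was the same for 43 of 60 combinations (71.7%), against 57.4% over different numbers. For ENSBTAG00000012710 the 5 high fetuses, 20, 22, 23, 39 and 47, all had a high slaughter library of the same number, and 3 numbers, 11, 29 and 31, were high at slaughter and low in the fetus. No number was high in the fetus alone. The 3 high fetuses of ENSBTAG00000048950 likewise had high slaughter libraries, with 7 further numbers high at slaughter alone. ENSBTAG00000050846 agreed for 14 of 15 numbers, where libraries with different numbers agreed in 76.4%. Of its numbers, 13 were high at both stages, number 20 was low at both and number 23 was low at slaughter alone.

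ENSBTAG00000049130 did the opposite in part. Slaughter numbers 20, 32, 45 and 47 held at most 1 count, and the fetuses of these numbers held 8.75, 7.40, 8.43 and 6.56 CPM. Fetal numbers 14 and 23 were low, with slaughter levels of 4.25 and 5.53 CPM. It agreed for 9 of 15 numbers, where libraries with different numbers agreed in 68.0%. Between birth and fetus, 2 genes were split at both stages and agreed in 9 of 14 combinations (64.3%, against 52.0% over different numbers).

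**Figure D4:**
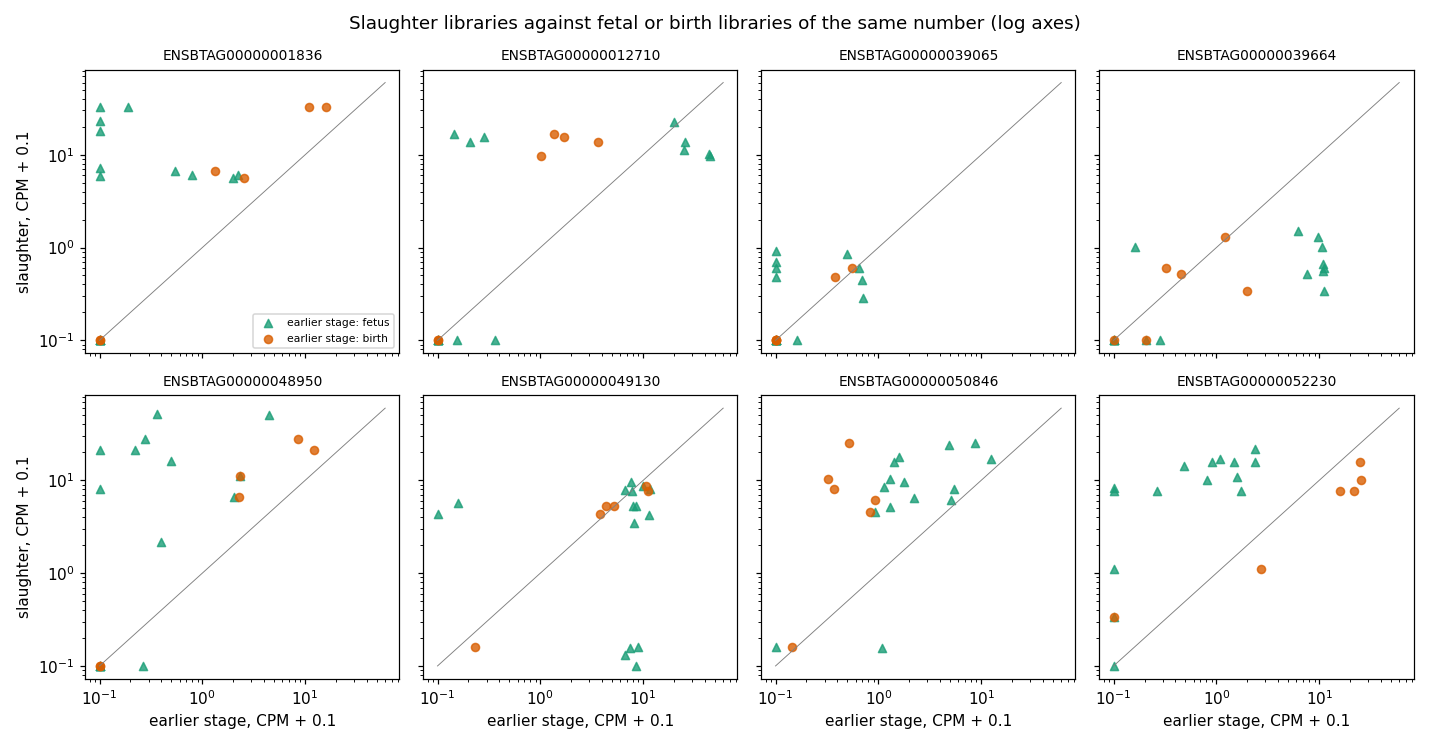
Slaughter level against fetal level (triangles, 15 numbers) or birth level (circles, 6 numbers) of the library with the same number, CPM + 0.1 on log axes, 1 panel per gene with a line of equal level. For ENSBTAG00000012710 no point lies at the lower right (high in the fetus, absent at slaughter), whereas for ENSBTAG00000049130 4 triangles do.

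Another 4 identifiers, named after their values were seen, met the same definition at 2 stages and were not among the 8. These were ENSBTAG00000006383, ENSBTAG00000011976, ENSBTAG00000016063 and ENSBTAG00000039035, each split at birth and slaughter. The first 3 had the same set for 6 of 6 shared numbers, where libraries with different numbers agreed in 72.2%, 76.9% and 50.85%. For each of these 3 genes, 5 of the 6 numbers were low at both stages. ENSBTAG00000039035 agreed for 4 of 6 (66.7%, against 67.5% over different numbers).

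The comparison of LG with MG asked whether F0 gain went with the level of these genes in later generations, which the choice of the genes had not used. No gene of the tables passed edgeR's quasi-likelihood test at an adjusted p of 0.05 at any stage (0% of 14200 genes tested in fetuses, 12485 at birth and 12577 at slaughter). Before adjustment, 102 genes lay under 0.05 in fetuses (0.718%), 515 at birth (4.12%) and 230 at slaughter (1.83%). DESeq2 also called 0 at each stage, with 215, 547 and 253 genes under 0.05 before adjustment. Fetal counts of 4 of the 8 genes passed the filter on low counts, as did birth counts of 4 and slaughter counts of 6, and 0 of these had an unadjusted p under 0.05.

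ENSBTAG00000050846 had the largest difference among those tested in fetuses, at 1.54 on the log2 scale (SE 0.80, adjusted p = 1.00 with edgeR). At slaughter it had 1.21 (SE 0.67, adjusted p = 1.00 with edgeR), and its LG and MG values overlapped at both stages. ENSBTAG00000049130 had 1.24 at slaughter (SE 0.84, edgeR adjusted p = 1.00), 0.63 at birth (SE 0.56) and 0.10 in fetuses (SE 0.67), where LG and MG values overlapped as well. ENSBTAG00000012710 had -1.05 at slaughter (SE 1.25) and ENSBTAG00000052230 -1.10 in fetuses (SE 0.94). Single libraries moved both, to -1.64 without slaughter LG 11 for ENSBTAG00000012710 and to -1.99 without fetal LG 36 for ENSBTAG00000052230. The other tested differences of these genes lay between -0.26 and 0.15. With sets this uneven the SE reached 1.25 on the log2 scale, so a moderate effect of gain was not detectable with 7 or 8 libraries a group.

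ENSBTAG00000039065 was present with 3 or more counts in 5 of 8 LG and 1 of 8 MG birth libraries. It did not pass the filter on low counts, and without that filter it had a log2 fold change of 3.11 (edgeR unadjusted p = 0.00536, adjusted p = 0.753). In that unfiltered fit 1299 of 21145 genes lay under 0.05 before adjustment. In fetuses ENSBTAG00000039065 was present in 2 of 8 LG and 2 of 8 MG libraries and at slaughter in 4 of 8 LG and 4 of 7 MG libraries. Over all split genes, high libraries made up 22 of 40 LG and 23 of 40 MG combinations of a gene and a library in fetuses, 30 of 32 LG and 26 of 32 MG at birth, and 35 of 48 LG and 29 of 42 MG at slaughter. These sums count each library once per split gene, so the combinations are not replicates of a treatment. ENSBTAG00000001836 and ENSBTAG00000048950, with equal sets at birth and slaughter, add the same libraries again.

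Mean levels differed between stages for most of the genes, as they did for most genes of the tables. The choice needed a wide gap at 2 stages, which a level near the floor can hardly give, so these differences are not independent of it. ENSBTAG00000001836, ENSBTAG00000012710 and ENSBTAG00000048950 did not pass the filter on low counts in fetuses alone. ENSBTAG00000012710, ENSBTAG00000039664 and ENSBTAG00000050846 did not pass it at birth alone, nor ENSBTAG00000039664 at slaughter alone. Their place in these tests thus rested on libraries of the other stage as well. Between birth and fetus 5 of the 7 genes tested passed with edgeR, where 81.9% of all 14820 genes did (37.9% higher and 44% lower at birth). Over all genes the log2 fold changes had a median of -0.12. ENSBTAG00000001836 rose towards birth by 5.06 in log2 units (SE 0.80, edgeR adjusted p = 6.95e-07), ENSBTAG00000052230 by 4.82 (SE 0.70, edgeR adjusted p = 1.31e-07) and ENSBTAG00000048950 by 3.82 (SE 0.75, edgeR adjusted p = 2.09e-05). ENSBTAG00000039664 fell by 2.54 (SE 0.79, edgeR adjusted p = 0.00402) and ENSBTAG00000012710 fell by 2.97 (SE 1.03, edgeR adjusted p = 0.00907). Over the libraries of the 7 shared numbers the fall of ENSBTAG00000012710 did not pass (log2 fold change -2.45, edgeR adjusted p = 0.183). ENSBTAG00000049130 had 0.56 (SE 0.45) and ENSBTAG00000050846 -1.17 (SE 0.61), and neither passed.

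Between slaughter and birth 3 of 7 genes passed, all higher at slaughter, where 70.2% of all 13369 genes passed (37% higher and 33.3% lower at slaughter). ENSBTAG00000050846 rose by 3.94 (SE 0.59, edgeR adjusted p = 7.72e-07) and ENSBTAG00000012710 by 3.65 (SE 0.90, edgeR adjusted p = 0.000669). ENSBTAG00000048950 rose by 1.71 (SE 0.75, edgeR adjusted p = 0.0444), a call that DESeq2 did not make (adjusted p = 0.0990). ENSBTAG00000001836 had 0.75 (SE 0.73), ENSBTAG00000052230 -0.19 (SE 0.59), ENSBTAG00000039664 -0.17 (SE 0.66) and ENSBTAG00000049130 -0.40 (SE 0.52), none of which passed. Over the libraries of the 6 shared numbers without pairing, ENSBTAG00000012710 had 3.08 (edgeR adjusted p = 0.0872) and ENSBTAG00000048950 had 1.35 (edgeR adjusted p = 0.499). With the library number as a block in that fit, 5 genes passed. ENSBTAG00000001836 was then higher at slaughter by 1.52 (edgeR adjusted p = 0.00102) and ENSBTAG00000052230 lower, at -1.04 (edgeR adjusted p = 0.00801).

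Between slaughter and fetus 5 of 7 genes passed, where 83.4% of all 14960 did (38.4% higher and 45% lower at slaughter), with a median of -0.16 in log2 units over all genes. ENSBTAG00000001836 rose by 5.82 (SE 0.98), ENSBTAG00000048950 by 5.53 (SE 0.98), ENSBTAG00000052230 by 4.65 (SE 0.64) and ENSBTAG00000050846 by 2.82 (SE 0.56), with edgeR adjusted p-values between 6.76e-08 and 2.68e-05. ENSBTAG00000039664 fell by 2.704 (SE 0.85, edgeR adjusted p = 0.00423). It did not pass the filter on low counts at slaughter alone, nor ENSBTAG00000001836 and ENSBTAG00000048950 in fetuses alone. These 3 genes thus entered the test through the stage where they were higher. ENSBTAG00000049130 (0.16, SE 0.55) and ENSBTAG00000012710 (0.71, SE 1.04) did not pass. Each stage was deposited as its own table, and fetuses also differ from F1 animals in generation and muscle region, so stage cannot be told apart from these.

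Genes with the most similar pattern were ranked by Pearson r of stage-centred log2 CPM over 47 libraries. The 2 genes with equal sets were each other's best match (r = 0.94), and their rows stood 2 apart in the fetal table, whose rows are not in identifier order. The next best for both was ENSBTAG00000023970 (r = 0.87 with ENSBTAG00000048950, 0.75 with ENSBTAG00000001836), 24 and 26 rows away, which was added after its values were seen. ENSBTAG00000023970 did not share their birth sets, with 1.635 CPM in LG 07 and 1.28 CPM in MG 20, against 1.015 CPM in LG 14. At slaughter it had at most 0.180 CPM in the 5 libraries low for both genes, and 0.342 CPM or more elsewhere. ENSBTAG00000052230 was most like ENSBTAG00000024751 (r = 0.69), in the adjacent row, and its next best match (r = 0.62) stood 15397 rows away. What the row order stands for is not given in the sources used here. In slaughter libraries LG 11, LG 41 and MG 31, low for ENSBTAG00000052230, ENSBTAG00000024751 had 0.334, 1.38 and 1.01 CPM, against 2.80 CPM or more in the other libraries.

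For ENSBTAG00000012710 the highest r was 0.59, with ENSBTAG00000020465, 351 rows away. The lowest was -0.65, with ENSBTAG00000050770, 32 rows away. ENSBTAG00000050770 had 0.282 CPM in slaughter MG 23, the library with the most ENSBTAG00000012710, and 3.09 CPM in MG 45, which had none. The other 7 slaughter libraries high for ENSBTAG00000012710 held 1.05 to 1.81 CPM of ENSBTAG00000050770, and the other 6 low ones held 2.09 to 3.03 CPM. In fetuses the sets overlapped, with 9.255 CPM of ENSBTAG00000050770 in high LG 22 and 6.997 CPM in low LG 29. Birth libraries overlapped too, with 2.79 CPM in MG 31, which had 25 counts of ENSBTAG00000012710, and 1.95 CPM in MG 17, which had 0. The best matches of the other 4 genes were weaker, with ENSBTAG00000010717 for ENSBTAG00000039065 (r = 0.46), ENSBTAG00000037605 for ENSBTAG00000039664 (0.50), ENSBTAG00000005344 for ENSBTAG00000049130 (0.52) and ENSBTAG00000018019 for ENSBTAG00000050846 (0.55). In this order the matches stood 9069, 1058, 11919 and 7355 rows away. The lowest r values of these 4 genes were -0.51 with ENSBTAG00000045751, -0.58 with ENSBTAG00000005868, -0.55 with ENSBTAG00000034987 and -0.51 with ENSBTAG00000012413. These stood 13424, 16922, 15489 and 25724 rows away. For ENSBTAG00000048950 the lowest was -0.54, with ENSBTAG00000026586, 15397 rows away. Each value is the extreme of 15263 genes and is given as a ranking.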

How the data were processed

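For each stage the authors deposited 1 table of raw gene counts, made from non-directional polyA-selected libraries read as 150 bp pairs, per the labels' protocols. The submitters' processing notes name STAR 2.7.3a, edgeR 3.24.3, FastQC 0.11.8 and MultiQC 1.9. Which genome build, annotation and counter were used is not given in the sources used here. Without strand, reads of a gene and an antisense partner cannot be separated, and related genes may share reads. The slaughter header lacks a cell for identifiers, and the names were read as heading the value columns in turn.

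Genes passing filterByExpr of edgeR 4.0.16 (R 4.3.3) were scaled by TMM. The robust quasi-likelihood test of edgeR gave p-values, adjusted by Benjamini-Hochberg over all genes tested and called at 0.05. LG and MG were compared per stage, and stages through the mean of LG and MG. SE is the log2 fold change over the root of the F statistic. Alternatives were DESeq2 1.42.0, its size factors, no filter, leaving out each library, and library numbers as a block. The edgeR test was tested on simulated data for LG against MG at each stage and for slaughter against birth. The simulated counts had no high and low sets within a group, so they do not show how the test behaves for these genes. Sets were cut at the widest gap of log2(CPM + 0.1). Genes are named as the 8 members and, for each, the genes of highest and lowest r. The members, definitions and lists were chosen with earlier results of these data known. Separate animals are not stated for each library, so p-values measure the spread between libraries. In 161 pairs of libraries within a group the lowest chi-square per degree of freedom was 23.2, and no libraries were merged. Cell type markers could not be used without gene symbols.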

Additional observations from a re-analysis of the deposited data

Results flagged for a closer look

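Among 48 groups of 1 gene, stage and gain, 11 held a library far from the rest of its group. The measure was the gap in CPM to the nearest library over the range of the group. Its cut flags about 1 in 20 groups of normally distributed values, and CPM with many zeros are not so distributed. The genes were also chosen for wide gaps between libraries, so nothing is read from this count. In fetuses, LG 22 had 1.87 CPM and MG 47 had 2.12 CPM of ENSBTAG00000001836, LG 22 had 44.4 CPM of ENSBTAG00000012710, MG 47 had 4.39 CPM of ENSBTAG00000048950, MG 31 had 4.95 CPM of ENSBTAG00000050846 and LG 36 had 2.26 CPM of ENSBTAG00000052230, each the highest of its group. Fetal LG 14 was the lowest of its group for ENSBTAG00000049130 with 0 CPM. At birth, MG 20 had 3.57 CPM of ENSBTAG00000012710, MG 21 had 0.263 CPM of ENSBTAG00000039065 and MG 17 had 5.45 CPM of ENSBTAG00000050846. At slaughter, MG 47 had 49.9 CPM of ENSBTAG00000048950.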

How the results depend on the processing

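With a gap of over 2-fold, 23 combinations of a gene and a stage were split in place of 15. Other definitions kept this count within 1.5 times, between 10 and 22. In the slaughter against birth comparison 3 of the genes were called, against 5 with the library number as a replicate block and 1 over the same shared numbers with no replicate block. The block turned ENSBTAG00000012710 between birth and fetus to a log2 fold change of 0.81 and ENSBTAG00000049130 between slaughter and fetus to -0.044, and the cause was not tested. Deviations of same-numbered libraries over all genes correlated above 0.1 in 1 of 6 pairs (slaughter and birth), 6 of 15 (slaughter and fetus) and 2 of 7 (birth and fetus). The median r was 0.062, 0.060 and 0.053 in this order. No such r was computed for libraries with different numbers, so this check cannot decide whether the numbers mark pairs. The main fits left the libraries unpaired, which was a choice and not a finding. Leaving out 1 library at a time, LG against MG called 0 genes in each fit. It turned the sign of the log2 fold change for ENSBTAG00000039664 (-0.41 to 0.072) and ENSBTAG00000049130 (-0.092 to 0.25) in fetuses. At birth it did so for ENSBTAG00000001836 (-0.50 to 0.16), ENSBTAG00000048950 (-0.35 to 0.24) and ENSBTAG00000052230 (-0.056 to 0.41). At slaughter it did so for ENSBTAG00000001836 (-0.68 to 0.66), ENSBTAG00000048950 (-0.55 to 0.90) and ENSBTAG00000052230 (-0.44 to 0.038), with no adjusted p under 0.05. Without a filter on low counts, ENSBTAG00000048950 did not pass between slaughter and birth (edgeR adjusted p = 0.0687), and the cause was not tested. Leaving out single libraries was not run for the comparisons between stages. Depth limits ENSBTAG00000039065, whose present level was near the floor of 3 counts.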
